A study of Mus musculus with 6 samples.

Results

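The S100 genes described here were 10 of the 27998 genes in the count tables of a single-cell RNA-seq study of mouse brain. They were S100a1, S100a4, S100a6, S100a8, S100a9, S100a10, S100a11, S100a13, S100a16 and S100b, taken by their symbols, out of 17 S100 protein genes that the tables list. S100pbp, which encodes an S100-binding protein and not an S100 protein, was left out of that total. The 7 S100 genes that are not described further had between 0 and 58 UMIs (unique molecular identifiers, each counting 1 captured RNA molecule) over the kept cells of the 3 libraries of either group.

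The cells came from the brains of C57BL/6 mice 6 to 8 weeks old, taken 24 h after a sham operation (3 libraries) or after middle cerebral artery occlusion (MCAO, 3 libraries), a model of ischemic stroke in which an artery that feeds much of a hemisphere is blocked. Both groups were handled alike. Cells were freed with papain (37 °C, 30 min), strained at 40 µm, cleaned on 30% Percoll, stained with Zombie NIR to mark the dead, and loaded on a Chromium 3′ system. The labels name neither the brain region nor whether each library is a separate animal. The p-values therefore reflect the scatter of these libraries alone, and that scatter may be technical. Neither mice with another genotype nor other drugs are named in either group.

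S100 proteins are small proteins with a pair of EF-hand loops, and most are calcium sensors. Most work as dimers, and in the calcium-sensing ones calcium opens a face of the dimer that then grips a partner protein. Inside cells S100A10, S100A11, S100A4 and S100A6 bind annexins, myosin or other partners at membranes and the cytoskeleton. S100A8 and S100A9, which pair as calprotectin, fill the cytoplasm of neutrophils and act outside cells on Toll-like receptor 4 and RAGE. In brain S100B is a textbook astrocyte protein that leaks into blood after injury, and S100a6, S100a10 and S100a11 are known from reactive glia.

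In the GENCODE M21 annotation of mm10, 9 of the 10 genes lie on chromosome 3, between positions 90511034 and 93564643, a stretch that holds 14 S100 genes. S100b lies apart on chromosome 10, at 76253853 to 76261159, and overlaps Dip2a on the opposite strand. S100a4, at 90603771 to 90606045 on chromosome 3, overlaps the gene model Gm42674 on the same strand. How reads over these overlaps were assigned, and whether strand was used, is not given in the sources used here, which leaves that uncertainty on the counts of both. S100a1 and S100a13 are transcribed away from each other, from starts 43 bases apart. The 250 bases before the start follow for 4 genes whose levels the results turn on. They come from the RefSeq table of build GRCm38.p6, 5′ to 3′ in the direction of transcription. Of the 10 members 9 had an entry in that table; S100a10 is named only. S100a8 and S100a9 carry the neutrophil signal, S100a4 was highest in monocyte-derived and dendritic cells, and S100a11 rose in the largest number of cell classes. On both strands the TATA box was searched as TATAAA, the AP-1 motif as TGANTCA and the C/EBP motif as TTGCNNAA. Capitals mark the matches.
S100a8, chr3:90668821-90669070, plus strand, the capitals beginning 30 bases before the start: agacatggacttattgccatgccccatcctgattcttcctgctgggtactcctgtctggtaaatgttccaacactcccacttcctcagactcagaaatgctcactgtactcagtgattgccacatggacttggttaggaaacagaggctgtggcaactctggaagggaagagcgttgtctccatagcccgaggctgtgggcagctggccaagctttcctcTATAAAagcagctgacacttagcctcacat
S100a9, chr3:90695722-90695971, minus strand, the capitals beginning 236 bases before the start: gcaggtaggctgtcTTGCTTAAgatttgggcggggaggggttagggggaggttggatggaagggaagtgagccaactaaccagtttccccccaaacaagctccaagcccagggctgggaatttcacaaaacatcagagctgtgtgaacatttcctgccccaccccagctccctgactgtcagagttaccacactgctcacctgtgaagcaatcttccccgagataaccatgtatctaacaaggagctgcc
S100a4, chr3:90603520-90603769, plus strand, the capitals beginning 31 bases before the start: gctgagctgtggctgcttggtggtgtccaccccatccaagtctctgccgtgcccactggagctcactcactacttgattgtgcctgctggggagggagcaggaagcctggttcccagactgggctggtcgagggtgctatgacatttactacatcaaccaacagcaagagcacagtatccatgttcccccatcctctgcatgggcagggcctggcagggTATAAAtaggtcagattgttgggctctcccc
S100a11, chr3:93520246-93520495, plus strand, the capitals beginning 136 and 38 bases before the start: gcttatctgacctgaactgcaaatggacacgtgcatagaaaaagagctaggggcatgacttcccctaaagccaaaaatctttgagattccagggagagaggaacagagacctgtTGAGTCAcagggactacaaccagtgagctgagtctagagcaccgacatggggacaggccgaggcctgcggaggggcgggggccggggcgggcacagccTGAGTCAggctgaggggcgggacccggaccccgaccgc
TATAAA was present in S100a8 and S100a4, the AP-1 letters in S100a11 and in a promoter of S100a16, and the C/EBP letters in S100a9. Of 32851 mouse promoters of the same length, 12.4% held TATAAA, 6.75% TGANTCA and 9.56% TTGCNNAA, so single matches are common and describe the letters only.

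The 6 libraries held 58528 barcodes and 25135690 to 42848023 UMIs each; 52761 cells were kept, with a median depth per cell of 2334 to 2413 UMIs in sham and 2787 to 3416 after MCAO. Cells were clustered without any S100 gene and 14 classes were named from marker genes, so every class name below means cells like that type in their markers. In 8 of 34 clusters no name was given. The classes held between 316 cells (ependymal) and 20462 cells (endothelial), and 1952 barcodes occurred in more than 1 library. In several classes the sham and MCAO cells fell into different clusters. Endothelial cells, microglia, astrocytes, smooth muscle cells, oligodendrocytes and choroid plexus epithelium were each held mostly by 1 set of clusters in sham and by another in MCAO. Neutrophils, border macrophages, dendritic cells, T or NK lymphocytes, pericytes, fibroblasts and ependymal cells were each a single cluster that held both groups. Levels are UMIs per 1000000 UMIs of the class in a library (CPM), after TMM scaling unless said otherwise, and changes are log2 ratios of MCAO over sham. They come from edgeR's quasi-likelihood test on summed counts, with Benjamini-Hochberg adjustment over all genes tested in the class and 3 libraries in each group.

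Of 140 pairs of a member and a class, 125 had enough counts to test; 35 were higher after MCAO, 11 lower and 79 did not pass an adjusted p of 0.05. The share of all genes tested that was called higher ran from 2.17% in fibroblasts to 30.1% in microglia. For genes called lower it ran from 1.62% in fibroblasts to 31.9% in microglia. The shares of each class stand beside its members below. Most of the increases lay in 3 genes. S100a11 was higher in 10 of 14 classes and lower in none, S100a6 higher in 9 of 14 and lower in 1, and S100a10 higher in 8 of 13 and lower in none. The calprotectin genes went the other way: S100a8 was lower in 3 and S100a9 in 2 of 14 classes, and neither was higher in any. Of these 5 calls, only the 2 in neutrophils held under all alternatives run. The alternatives that take out neutrophil RNA left neutrophils as they were. S100a13 passed the test in 1 of 14 classes, S100b in 1 of 6, S100a16 in 3 of 13 (2 higher), S100a1 in 4 of 14 (1 higher) and S100a4 in 4 of 9 (3 higher).

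**Figure D1:**
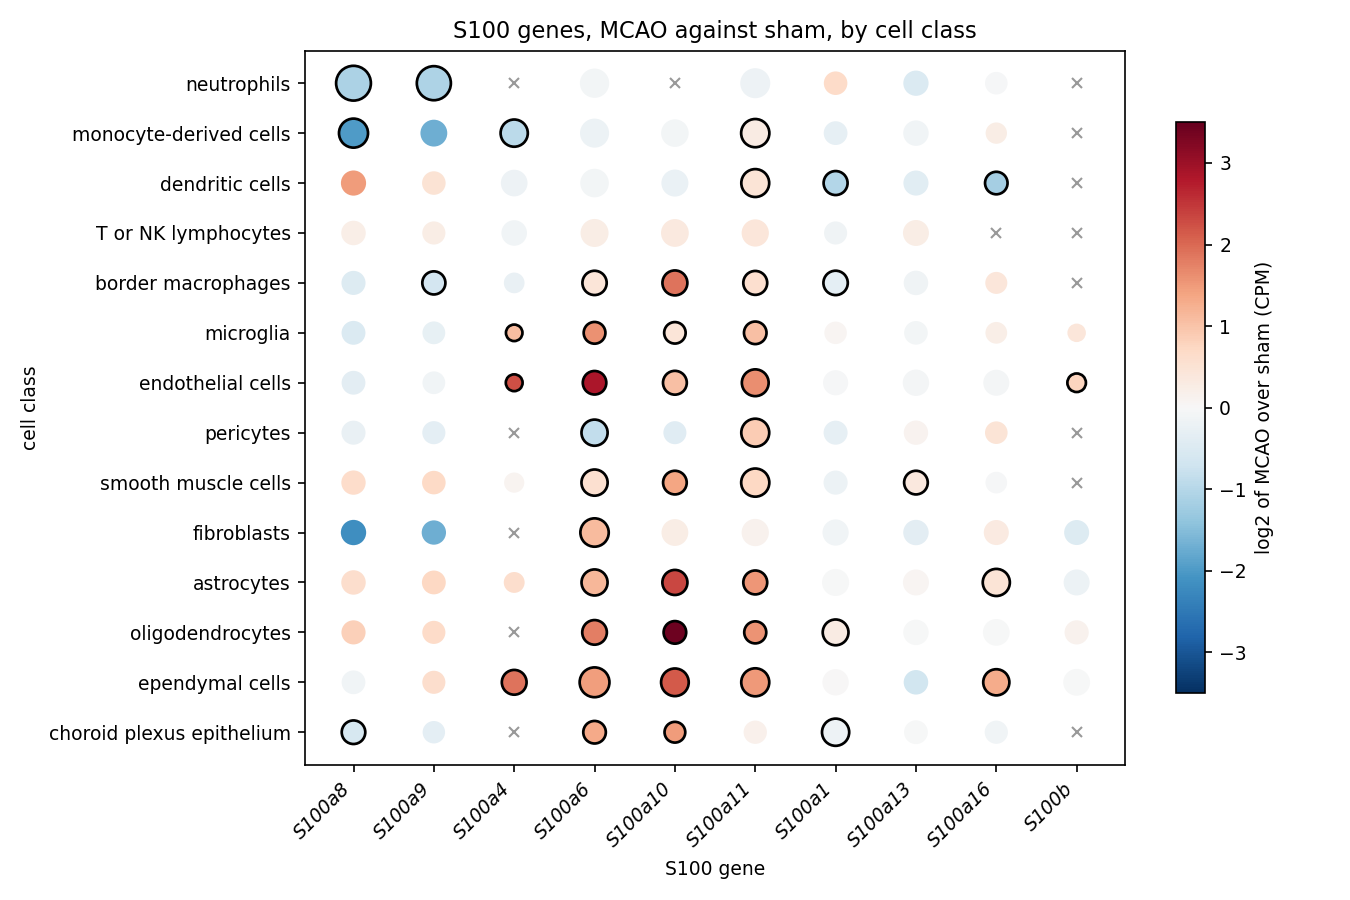
Each dot is 1 S100 gene (horizontal axis) in 1 of 14 cell classes (vertical axis), coloured by its log2 change of MCAO over sham, sized by the log10 of the higher of the group mean levels in CPM, and ringed in black where the adjusted p was under 0.05; a grey cross marks a pair without enough counts to test. The columns of rings lie along S100a6, S100a10 and S100a11, with 9, 8 and 10 classes higher, while S100a8 and S100a9 have rings only on lower values. Over all genes tested, 2.17% (fibroblasts) to 30.1% (microglia) were called higher and 1.62% to 31.9% lower in the same classes.

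Each gene had its own distribution over cell types, which the injury changed little for some and much for others. S100a8 and S100a9 were neutrophil genes: of their UMIs in the kept cells, 91.8% and 92.8% lay in neutrophils in sham and 85.8% and 87.4% after MCAO, although neutrophils were only 145 and 428 of the cells. S100a4, also known as fibroblast-specific protein, was low in fibroblasts here: monocyte-derived cells held 52.7% of its UMIs in sham and 59.4% after MCAO, and its level in fibroblasts was 8.26 ± 3.14 (SD, n = 3) and 12.2 ± 14.7 CPM. By level, monocyte-derived cells led in sham (801 ± 137 CPM, above dendritic cells at 564 ± 57.7) and dendritic cells after MCAO (497 ± 44.6, above 412 ± 24.98), in both groups without overlap. T or NK lymphocytes followed (286 ± 107 and 247 ± 125) and then ependymal cells (48.7 ± 17.5 and 178 ± 12.7), whose ranges overlapped after MCAO. S100b was led by ependymal cells (622 ± 111 CPM in sham, 622 ± 95.9 after MCAO), then astrocytes, and in sham then fibroblasts. After MCAO fibroblasts and oligodendrocytes were close, at 39.2% and 40.8% of the astrocyte level without TMM scaling. The astrocytes, which were more numerous than the ependymal cells, held 48.3% and 52.8% of the S100b UMIs.

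S100a1, which is best known from muscle, was highest in choroid plexus epithelium (791 ± 29.5 CPM in sham) and astrocytes (731 ± 27.9), whose ranges did not overlap in sham but did after MCAO (703 ± 12.4 and 730 ± 30.8), and was lowest in microglia (47.3 ± 4.4 and 49.95 ± 5.34). S100a13, a gene known for the release of fibroblast growth factor 1, was highest in endothelial cells in both groups (469 ± 9.36 and 446 ± 11 CPM), followed by astrocytes. S100a16 was highest in oligodendrocytes (592 ± 55.5 CPM) and astrocytes (532 ± 21.8) in sham, with overlapping ranges, and in astrocytes after MCAO (747 ± 13.9), above oligodendrocytes (583 ± 20.7) with no overlap. Endothelial cells held 57.5% of the S100a13 and 57.1% of the S100a16 UMIs in sham, and 45.2% and 42.4% after MCAO.

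S100a11 was highest in neutrophils in sham (5302 ± 656 CPM), without overlap with the next class. S100a6 was highest there too (3229 ± 677), with a range that overlapped that of monocyte-derived cells (2745 ± 335), and S100a10 in monocyte-derived cells (991 ± 124), whose range overlapped that of T or NK lymphocytes (916 ± 131). After MCAO ependymal cells led S100a6 (4530 ± 458 CPM, above neutrophils at 3045 ± 643, with no overlap) and stood second for S100a10 (1051 ± 79.8). The lowest levels in sham were those of microglia for S100a6 (11.2 ± 1.11) and of oligodendrocytes for S100a10 (4.77 ± 3.25) and S100a11 (13 ± 6.09). For S100a6 the range overlapped that of endothelial cells (12.1 ± 2.96), and for S100a10 that of choroid plexus epithelium (7.25 ± 2.85).

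In endothelial cells, the lining of brain vessels, S100a6 stood at 8.90, 14.8 and 12.5 CPM in the sham libraries and at 89.0, 97.1 and 78.6 after MCAO. All MCAO libraries lay far above all sham libraries: the log2 change was 2.87 ± 0.15 (SE; edgeR adjusted p = 1.10e-06, n = 3 and 3). S100a11 rose from 193, 208 and 189 CPM to 598, 640 and 597, a log2 change of 1.64 ± 0.05 (edgeR adjusted p = 4.25e-18, n = 3 and 3). S100a10, whose protein forms a tetramer with annexin A2 that holds plasminogen on the vessel surface, rose from 47.8, 51.9 and 48.4 CPM to 102, 107 and 101 (log2 change 1.07 ± 0.06, edgeR adjusted p = 6.59e-13, n = 3 and 3). In each of these genes the libraries of a group lay close together and the groups did not overlap. S100a1, S100a13 and S100a16, by contrast, differed by log2 changes of -0.05, -0.07 and -0.06 that did not pass the test. Of the 10 members tested in endothelial cells, 5 were higher and 0 lower, where 24.6% of all genes tested were higher and 22.6% lower.

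The other 2 endothelial calls were at very low levels. S100a4 went from 0.759 ± 0.430 to 3.61 ± 0.548 CPM and S100b from 4.31 ± 1.15 to 7.48 ± 0.880 CPM (log2 changes 2.25 ± 0.35 and 0.78 ± 0.20; edgeR adjusted p = 1.32e-05 and 0.00246, n = 3 and 3). After MCAO endothelial S100a4 was 0.902% of the monocyte-derived level, and 10 monocyte markers stood at a median of 1.17% (0.578 to 93.0%) of theirs. Endothelial S100b was 2.40% of the astrocyte level, against a median of 1.85% (1.24 to 11.1%) over 12 astrocyte markers. Both lay within the range of those markers, and what part of them came from RNA of other cells was not tested. On the same scale endothelial S100a6, S100a10 and S100a11 reached 3.79%, 11.4% and 40.8% of the monocyte-derived level. These values lay above the marker median of 1.17% and below the highest marker. That marker stood at 93.0% of the monocyte-derived level in endothelial cells, so a place within the range says little. What part of the 3 levels came from RNA of other cells was not tested.

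Endothelial levels are also given by cluster, here in CPM without TMM scaling. Sham and MCAO cells lay mostly in different clusters, so most of these values compare clusters and not groups within a cluster. The sham class consisted of 2 large clusters of 5819 and 4805 cells and a small one of 436 cells led by Vwf, Vcam1 and Ackr1. The MCAO class consisted of a cluster of 5839 cells with Plat and Ctla2a among its leading genes and another of 3174 cells led by Ackr1, Lrg1 and Lcn2. S100a11 was at 1014 ± 21.7 CPM in the Ackr1-led MCAO cluster and 273 ± 8.24 in the Plat-marked one. It was at 177 ± 10.99 and 190 ± 8.6 in the large sham clusters and at 465 ± 32.4 in the Vwf-led one. S100a6 was at 147 ± 20.2 and 39.2 ± 1.77 in these MCAO clusters, and at 12.5 ± 2.74, 11.9 ± 3.41 and 9.62 ± 4.61 in the sham clusters. S100a10 and S100a11 also differed among the sham clusters, with S100a10 at 174 ± 23.3 in the Vwf-led sham cluster and 155 ± 7.20 in the Ackr1-led MCAO cluster, whereas S100a6 was low in all 3 sham clusters. Of the MCAO cells, 188 and 137 fell into the large sham clusters, and their S100a6 was 39.2 ± 26.9 and 45.8 ± 33.1 CPM. In 1 of the 2 clusters these few MCAO cells overlapped the range of the sham cells: in the larger one the lowest MCAO library was at 14.3 CPM and the highest sham library at 14.5. Joining the class with the endothelial-marker clusters that had been left unnamed, an alternative chosen after seeing the data, moved the S100a6 change from 2.87 to 1.88 and that of S100a11 from 1.64 to 1.40. The 2 largest of these were led by Gkn3, Stmn2 and Bmx and by Bmx, Sema3g and Stmn2, with S100a6 at 66.7 ± 2.87 CPM in the first in sham and 134 ± 39.4 in the second after MCAO.

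**Figure D2:**
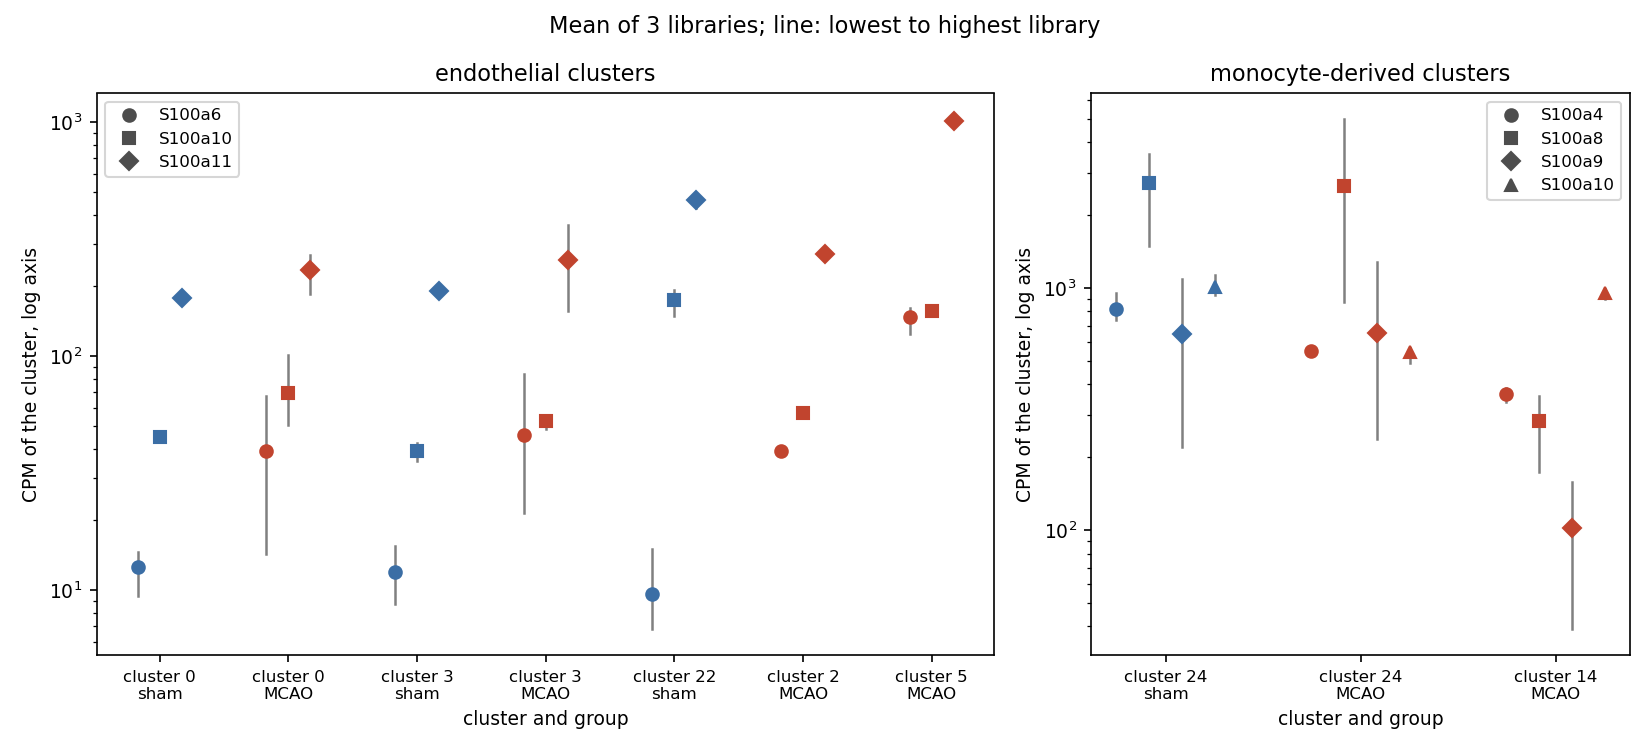
Levels (CPM without TMM scaling) of S100a6, S100a10 and S100a11 in the endothelial clusters, and of S100a4, S100a8, S100a9 and S100a10 in the monocyte-derived clusters, with sham in blue and MCAO in red; a point is the mean over the 3 libraries and its line runs from the lowest to the highest library. Clusters 0 and 3 are the large sham endothelial clusters, 22 is Vwf-led, 2 Plat-marked, 5 Ackr1-led, 24 Plac8-led and 14 Arg1-led. S100a11 reaches 1014 CPM in the Ackr1-led MCAO cluster, and S100a8 lies at 283 CPM in the Arg1-led MCAO cluster against 2649 in the Plac8-led cluster of the same libraries.

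The share of endothelial cells with a UMI moved with the level. Cells with at least 1000 UMIs were thinned to that depth, and shallower cells were left out of the thinned shares but not of the unthinned ones. After thinning, 1.18% of sham and 5.34% of MCAO endothelial cells had an S100a6 UMI (2.63% and 11.97% unthinned), beside 1.19% and 3.09% of microglia, the class with the lowest level. For S100a11 the thinned shares were 16.7% and 33.7% (32.7% and 56.0% unthinned), beside 2.59% and 4.89% of microglia. Median depth per library ran from 2058 to 2118 UMIs in sham and 2186 to 2688 in MCAO endothelial cells, and from 2380 to 2471 and 3368 to 4126 in microglia.

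In astrocytes the gene with the largest change was S100a10. It stood at 37.4, 49.3 and 39.0 CPM in the sham libraries and at 199, 206 and 231 after MCAO, all MCAO libraries far above all sham libraries (log2 change 2.34 ± 0.13, edgeR adjusted p = 1.87e-20, n = 3 and 3). S100a6 rose from 183, 164 and 163 CPM to 368, 368 and 414 (1.17 ± 0.08, edgeR adjusted p = 1.29e-15, n = 3 and 3). S100a11 rose from 38.6, 47.1 and 28.4 to 84.5, 112 and 131 (1.53 ± 0.19, edgeR adjusted p = 3.31e-06, n = 3 and 3). S100a16 rose from 532 ± 21.8 to 747 ± 13.9 CPM (0.49 ± 0.07, edgeR adjusted p = 5.86e-08, n = 3 and 3), again without overlap. The astrocyte hallmark S100b did not rise: it was at 454, 310 and 356 CPM in sham and 324, 331 and 306 after MCAO (-0.22 ± 0.10, edgeR adjusted p = 0.142, n = 3 and 3), with overlapping groups and the widest spread in sham. S100a1 was at 731 ± 27.9 and 730 ± 30.8 CPM. Of 10 members tested, 4 were higher and 0 lower, where 11.5% of all genes tested in astrocytes were higher and 9.18% lower.

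The share of astrocytes with an S100a10 UMI, thinned to 1000 UMIs, was 3.53% in sham and 11.02% after MCAO (11.1% and 25.5% unthinned). In choroid plexus epithelium, where S100a10 was low, the thinned shares were 0.826% and 2.07%. Median depth per library was 2937 to 3170 UMIs in sham and 3115 to 3964 in MCAO astrocytes, and 5886 to 6012 and 4046 to 4900 in choroid plexus epithelium. After MCAO the astrocyte levels of S100a6, S100a10 and S100a11 were 15.97%, 22.8% and 7.05% of those of monocyte-derived cells, and the 10 monocyte markers stood at a median of 1.06% (0.544 to 10.1%). S100a11 lay within that range and S100a6 and S100a10 above it, and what part came from RNA of other cells was not tested. The sham astrocytes were mostly in a cluster led by Ntm, Gria2 and Pantr1, and the MCAO astrocytes in one led by Gfap, Aldoc and Gjb6.

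Ependymal cells, the ciliated lining of the ventricles, formed a single cluster of 165 sham and 151 MCAO cells, in which 5 members rose. S100a6 was at 1905, 1602 and 1460 CPM in sham and 4138, 4419 and 5033 after MCAO (log2 change 1.45 ± 0.12, edgeR adjusted p = 6.52e-08, n = 3 and 3). S100a10 rose from 202, 261 and 240 CPM to 968, 1058 and 1127 (2.15 ± 0.14, edgeR adjusted p = 3.65e-09, n = 3 and 3). S100a11 rose from 470, 428 and 514 to 1133, 1518 and 1384 (1.505 ± 0.14, edgeR adjusted p = 1.68e-07, n = 3 and 3). The groups were far apart in all of these genes. S100a4 rose from 48.7 ± 17.5 to 178 ± 12.7 CPM and S100a16 from 164 ± 23.2 to 410 ± 47.7 (1.91 ± 0.28 and 1.31 ± 0.19; edgeR adjusted p = 0.000115 and 6.07e-05, n = 3 and 3). S100b, at 622 CPM in both groups, and S100a1, at 466 ± 83.3 and 461 ± 42.7 CPM, did not pass the test. In all, 5 of 10 members were higher and 0 lower, against 6.41% and 5.03% of all genes tested in ependymal cells.

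**Figure D3:**
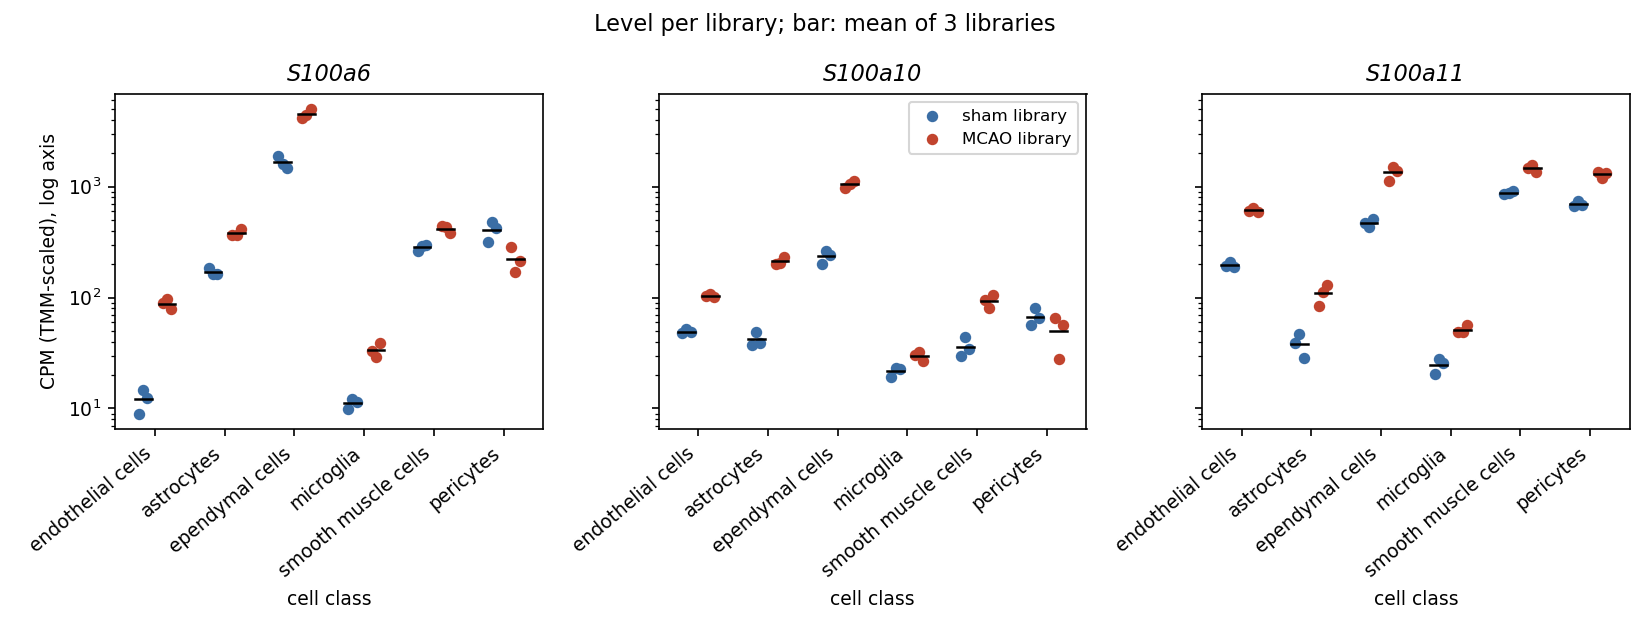
Level in CPM (log axis) of S100a6, S100a10 and S100a11 in each library of 6 cell classes, with 3 sham libraries in blue and 3 MCAO libraries in red and a bar at each group mean. The MCAO points lie above the sham points for all 3 genes in endothelial cells, astrocytes, ependymal cells, microglia and smooth muscle cells, and below them for S100a6 in pericytes.

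In the vessel wall cells as classed here, S100a6 rose in smooth muscle cells and fell in pericytes. Neither call held at a mitochondrial limit of 5%, where the changes were -0.27 and -0.26. The difference between these classes was not tested. In smooth muscle cells S100a11 was at 860, 877 and 913 CPM in sham and 1473, 1566 and 1366 after MCAO (log2 change 0.73 ± 0.06, edgeR adjusted p = 7.54e-13, n = 3 and 3). S100a10 rose from 35.9 ± 7.30 to 93.8 ± 12.8 CPM (1.38 ± 0.15, edgeR adjusted p = 1.08e-09, n = 3 and 3). S100a6 rose from 283 ± 19.3 to 418 ± 34.7 CPM (0.56 ± 0.08, edgeR adjusted p = 1.73e-07, n = 3 and 3). After MCAO S100a6, S100a10 and S100a11 were 17.9%, 10.3% and 97.6% of the monocyte-derived level. The 10 monocyte markers were at a median of 0.939% (0.424 to 14.65%). S100a10 lay within that range and the others above it, and what part came from RNA of other cells was not tested. With a limit of 5% instead of 10% on mitochondrial UMIs, cells were clustered and named anew. The class then held 193 sham and 633 MCAO cells instead of 1109 and 1361. Only S100a11 still passed among the 4 members called: S100a6 was at -0.27 and S100a10 at 0.59. S100a13 passed narrowly (0.36, edgeR adjusted p = 0.0387) with overlapping groups, and lost the call when any library but MCAO library 1 was left out. Of 9 members tested, 4 were higher and 0 lower, against 11% and 9.53% of all genes tested in smooth muscle cells.

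In pericytes, the contractile cells of capillaries, S100a11 was higher and S100a6 lower. S100a11 was at 663, 738 and 686 CPM in sham and 1344, 1205 and 1321 after MCAO (log2 change 0.89 ± 0.10, edgeR adjusted p = 1.70e-08, n = 3 and 3). S100a6 was at 318, 480 and 422 in sham and 286, 169 and 213 after MCAO (-0.87 ± 0.18, edgeR adjusted p = 0.0011, n = 3 and 3). The S100a6 groups did not overlap, though sham library 1 and MCAO library 1 were near each other, and with the mitochondrial limit of 5% the change was -0.26 and did not pass. S100a4 had 0 UMIs in the sham and 7 in the MCAO pericytes and was not tested. Of 8 members tested, 1 was higher and 1 lower, against 8.5% and 6.24% of all genes tested in pericytes. In fibroblasts S100a6 was at 482, 898 and 920 CPM in sham and 1353, 1605 and 2090 after MCAO (1.11 ± 0.22, edgeR adjusted p = 0.0104, n = 3 and 3); sham library 1 was low and the groups did not overlap. This was the only call among 9 members, where 2.17% of all genes tested in fibroblasts were higher and 1.62% lower. It did not pass when MCAO library 3 was left out (0.93) or when cells with a UMI of a neutrophil gene were left out (0.43).

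Oligodendrocytes, which make myelin, showed the same 3 genes at low levels. S100a6 was at 45.5, 47.4 and 50.4 CPM in sham and 221, 148 and 122 after MCAO (log2 change 1.79 ± 0.26, edgeR adjusted p = 0.00159, n = 3 and 3). S100a11 went from 13 ± 6.09 to 39.4 ± 11.3 CPM (1.56 ± 0.28, edgeR adjusted p = 4.36e-05, n = 3 and 3). S100a10 was at 1.17, 5.64 and 7.50 CPM in sham, a total of 13 UMIs, and 84.4, 32.6 and 41.2 after MCAO (3.44 ± 0.78, edgeR adjusted p = 0.037, n = 3 and 3). The direction was shared by all libraries, but the S100a10 call was lost when any sham library was left out, with log2 changes of 3.01 to 3.92. S100a6 did not pass at the mitochondrial limit of 5% (1.35), nor did S100a10 (2.79), and neither passed when cells with a UMI of a neutrophil gene were left out (1.61 and 3.83). S100a1 rose from 263 ± 16.1 to 324 ± 26.3 CPM (0.30, edgeR adjusted p = 0.0081), a call lost without sham library 1 (0.25) or MCAO library 3 (0.24). After MCAO S100a6, S100a10 and S100a11 were 7.02%, 5.82% and 2.61% of the monocyte-derived level, where the 10 monocyte markers were at a median of 0.991% (0.583 to 6.04%). The S100a10 and S100a11 values lay within that range, and what part came from RNA of other cells was not tested. Of 9 members tested, 4 were higher and 0 lower, against 11.3% and 10.3% of all genes tested in oligodendrocytes.

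In choroid plexus epithelium, which makes cerebrospinal fluid, S100a6 rose from 20.6 ± 0.864 to 52.0 ± 5.70 CPM and S100a10 from 7.25 ± 2.85 to 20.5 ± 1.57 (log2 changes 1.33 ± 0.14 and 1.49 ± 0.23; edgeR adjusted p = 1.62e-08 and 1.30e-05, n = 3 and 3). S100a8 fell by 0.59 on the log2 scale, from 90.0 ± 12.3 to 60.1 ± 10.3 CPM, but was at -0.02 with the mitochondrial limit of 5%. S100a1 was lower by a small step (-0.17, edgeR adjusted p = 0.0143) that was lost without sham library 1 (-0.14) or MCAO library 2 (-0.16). Of 8 members tested, 2 were higher and 2 lower, against 7.48% and 6.84% of all genes tested in choroid plexus epithelium. After MCAO the S100a6 and S100a10 levels were 2.29% and 2.32% of those of monocyte-derived cells, and the 10 monocyte markers were at a median of 1.005% (0.497 to 5.25%); what part of the rise came from RNA of other cells was not tested.

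In microglia, the resident macrophages of brain tissue, levels stayed low. S100a6 was at 9.99, 12.2 and 11.3 CPM in sham and 33.2, 28.9 and 39.2 after MCAO (log2 change 1.59 ± 0.13, edgeR adjusted p = 2.82e-09, n = 3 and 3). S100a11 was at 20.4, 28.1 and 25.5 in sham and 49.4, 48.8 and 56.4 after MCAO (1.06 ± 0.10, edgeR adjusted p = 3.36e-08, n = 3 and 3). S100a10 rose from 21.7 ± 2.24 to 29.6 ± 2.85 CPM (0.45 ± 0.11, edgeR adjusted p = 0.0013, n = 3 and 3). S100a4 rose from 1.51 ± 0.238 to 3.21 ± 0.154 (1.07 ± 0.31, edgeR adjusted p = 0.00526, n = 3 and 3). Of 10 members, 4 were higher and 0 lower, where, of the microglial genes tested, 30.1% were called higher and 31.9% lower. After MCAO these levels were 1.40% (S100a6), 3.33% (S100a11), 3.18% (S100a10) and 0.779% (S100a4) of those of monocyte-derived cells, whose number went from 140 in sham to 1429 after MCAO. The 10 monocyte markers were at a median of 1.90% (0.807 to 10.7%). S100a4 lay below that range and S100a6, S100a10 and S100a11 within it; what part came from RNA of other cells was not tested. The sham microglia lay in a cluster led by P2ry12, Siglech and Gpr34, and the MCAO microglia in clusters led by Ccl12, Gpr84 and Tnf, by Mmp12, Lpl and Spp1, and by Spp1, Cd72 and Ccl12. Without the latter 2, whose score for microglial markers was under 0.3, the S100a10 change was 0.14 and did not pass, an alternative chosen after seeing the data.

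Border macrophages, the Mrc1- and Lyve1-led cells of the vessel and membrane borders, had a larger S100a10 change than microglia. The difference between these classes was not tested. S100a10 was at 67.1, 47.4 and 45.6 CPM in sham and 207, 220 and 165 after MCAO (log2 change 1.91 ± 0.14, edgeR adjusted p = 9.71e-13, n = 3 and 3), and all MCAO libraries were above all sham libraries. Its MCAO level was 21.5% of that of monocyte-derived cells, where the monocyte markers were at a median of 6.60% (0.869 to 60.7%). The S100a10 value lay above that median and below the highest marker, in a range too wide for this to say much. On the same scale S100a6 and S100a11 were at 5.68% and 7.18%, near the median. What part of these levels came from RNA of other cells was not tested. S100a6 and S100a11 rose less, from 99.0 ± 5.34 to 134 ± 17.4 CPM and from 73.1 ± 15.6 to 109 ± 14.1 (0.44 and 0.59; edgeR adjusted p = 0.00526 and 0.00151). S100a9 fell by 0.64 and S100a1 by 0.34 on the log2 scale (edgeR adjusted p = 0.00432 and 0.0177). Of these 4, the S100a6 call was lost without MCAO library 2 (0.33) and that of S100a9 without sham library 2 (-0.41). The S100a1 call was lost without sham library 2 (-0.28) or MCAO library 1 (-0.31). S100a6, S100a9 and S100a11 did not pass when cells with a neutrophil gene UMI were left out. Of 9 members tested, 3 were higher and 2 lower, against 16.3% and 14.5% of all genes tested in border macrophages.

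There were 55, 44 and 46 neutrophils in sham and 146, 152 and 130 after MCAO. S100a8 was at 235300, 201800 and 165800 CPM in sham and 98110, 82360 and 97400 after MCAO (log2 change -1.12 ± 0.15, edgeR adjusted p = 2.38e-06, n = 3 and 3), so that S100a8 alone made up a smaller share of the RNA in each MCAO library than in any sham library. S100a9 was at 125400, 118300 and 92560 CPM in sham and 56560, 46460 and 55040 after MCAO (-1.09 ± 0.15, edgeR adjusted p = 2.69e-06, n = 3 and 3). S100a6 (3229 ± 677 and 3045 ± 643 CPM) and S100a11 (5302 ± 656 and 4722 ± 652) did not pass the test. Of 7 members tested, 0 were higher and 2 lower, against 16.3% and 13.5% of all genes tested in neutrophils. Of the list of 12 other neutrophil genes, 4 were higher, 5 lower and 3 did not pass. Camp, Ltf, Ngp, Ly6g and Wfdc21 were lower (-2.49, -2.26, -2.15, -1.54 and -1.005), and Il1r2, Hdc, Cxcr2 and Retnlg higher (2.95, 0.81, 0.75 and 0.45). Mmp8, Mcemp1 and Stfa2l1 were at -0.08, -0.14 and 0.77. Median UMIs per neutrophil ran from 2858 to 3458 in sham and from 1702 to 2070 after MCAO; the part of depth in the change was not tested.

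Outside neutrophils and monocyte-derived cells, S100a8 UMIs were present in every class. As a percentage of the neutrophil level of the same library, the class means were 0.0376% to 0.137% in sham and 0.0577% to 0.266% after MCAO. Single libraries ran from 0.0297% (dendritic cells) to 0.288% (fibroblasts) in sham. After MCAO they ran from 0.0475% to 0.483%, both in dendritic cells. In endothelial cells the mean was 0.0594% in sham and 0.0903% after MCAO, and the list of 12 other neutrophil genes stood at 0.0781% and 0.138% of its neutrophil level. The number of S100a9 UMIs per S100a8 UMI was 0.556 and 0.656 in endothelial cells, against 0.559 and 0.569 in neutrophils. In microglia the S100a8 level was 0.0638% and 0.0840%, the list 0.0835% and 0.174%, and the ratio 0.551 and 0.640. What part of these levels came from RNA of other cells was not tested. With the thinning to 1000 UMIs, 10.0% of sham and 7.49% of MCAO endothelial cells had an S100a8 UMI (20.5% and 17.7% unthinned), beside 99.95% and 97.7% of neutrophils.

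**Figure D4:**
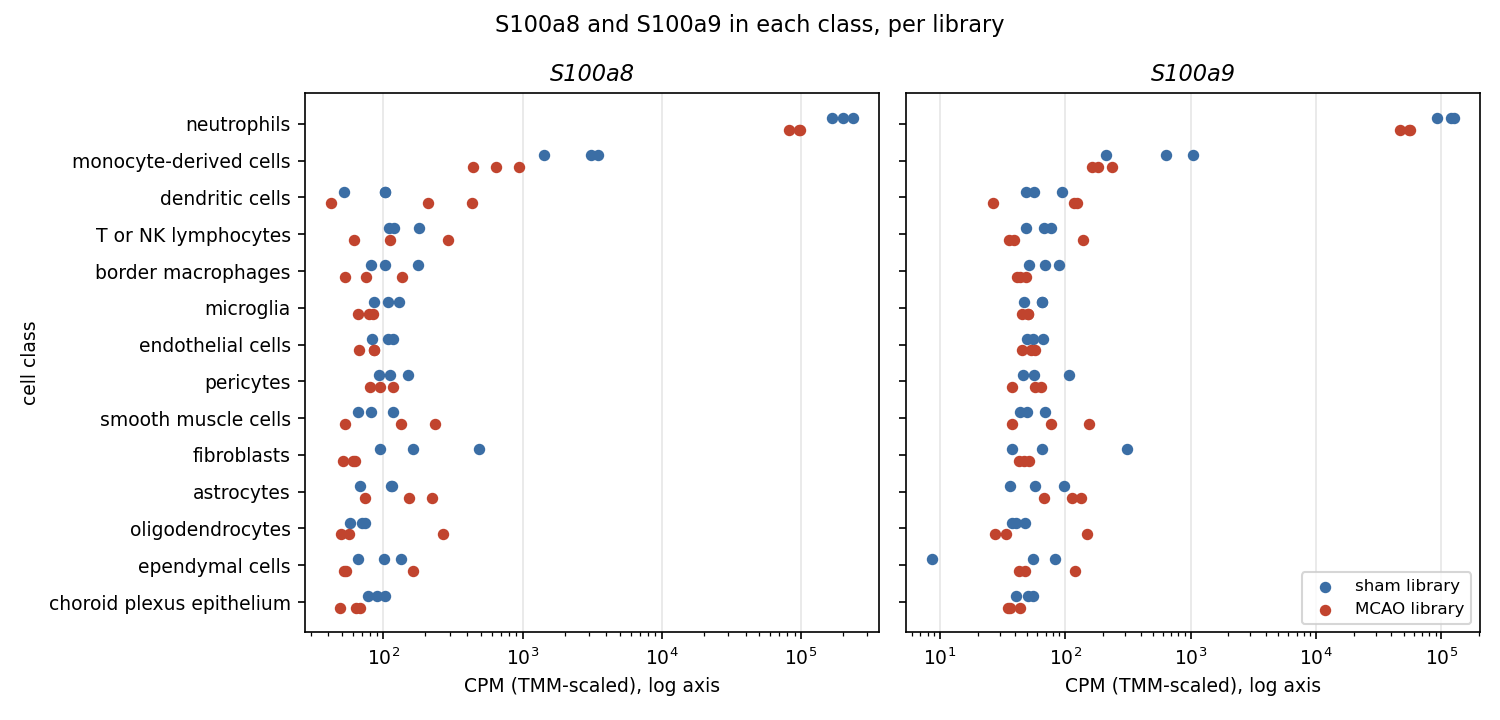
Level in CPM (log axis) of S100a8 and S100a9 in each library of the 14 cell classes, sham in blue and MCAO in red. Neutrophils stand alone at 201000 and 92620 CPM of S100a8 on average, monocyte-derived cells come next, and the group means of S100a8 in the other 12 classes lie between 57.9 and 248 CPM.

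Monocyte-derived cells were the class next in S100a8 level, and here the gene kept another ratio: there were 0.219 S100a9 UMIs per S100a8 UMI in sham and 0.307 after MCAO. S100a8 was at 3090, 1427 and 3462 CPM in sham and 938, 644 and 437 after MCAO (log2 change -1.98 ± 0.49, edgeR adjusted p = 0.0465, n = 3 and 3). Sham library 2 was low but still above every MCAO library; the call was lost without any library except sham library 2 (-1.69 to -2.29). S100a4 was at 960, 732 and 713 CPM in sham and 387, 414 and 436 after MCAO (-0.95 ± 0.11, edgeR adjusted p = 4.16e-07, n = 3 and 3), with the groups apart. S100a11 was slightly higher (1277 ± 67.7 and 1547 ± 65.0 CPM, 0.28, edgeR adjusted p = 0.013). It did not pass when scaled by library total only (0.17). S100a6 and S100a10 did not pass the test (-0.19 and -0.08). Of 9 members tested, 1 was higher and 2 lower, against 15.2% and 14.1% of all genes tested in monocyte-derived cells.

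The monocyte-derived values depended on which cells made up the class. A cluster led by Plac8, Ly6c2 and Chil3 held 139 of the 140 sham cells and 310 MCAO cells, and a cluster led by Arg1, Ccl6 and F10 held 1119 MCAO cells. Within the Plac8-led cluster S100a8 was at 2716 ± 1086 CPM in sham and 2649 ± 2117 after MCAO, with MCAO libraries from 872 to 4991, whereas the Arg1-led cluster had 283 ± 97.6. S100a4 was lower after MCAO also within the Plac8-led cluster, at 817 ± 122 and 549 ± 16.9 CPM with no overlap, and was at 363 ± 23.1 in the Arg1-led cluster. S100a10 was at 1011 ± 105 and 542 ± 43.0 in the Plac8-led cluster and 953 ± 44.7 in the Arg1-led one.

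In dendritic cells, of which there were 106 in sham and 402 after MCAO, S100a11 was at 1161, 804 and 724 CPM in sham and 1258, 1192 and 1271 after MCAO (log2 change 0.49 ± 0.13, edgeR adjusted p = 0.0187, n = 3 and 3). S100a1 fell by 1.04 and S100a16 by 1.203 on the log2 scale (edgeR adjusted p = 0.00954 and 0.0341, n = 3 and 3). Sham library 1 lay near the MCAO libraries for S100a11, and the calls were not firm. That of S100a11 was lost without sham library 2 (0.45) or 3 (0.37), and that of S100a1 without sham library 2 (-0.85). That of S100a16 was lost without sham library 2 (-0.97) or 3 (-1.26) or MCAO library 2 (-1.21) or 3 (-0.92). Under 2 alternatives the cells were clustered and named anew, and the dendritic class became larger. At the mitochondrial limit of 5% it held 307 sham and 620 MCAO cells, and with S100 genes kept in the clustering 304 and 621. Their values are thus not for the same set of cells. At the limit of 5%, 4 members were higher and 1 lower, and S100a4, S100a6 and S100a10 were at 0.47, 0.56 and 0.54. With S100 genes kept in the clustering the counts were again 4 and 1, and these genes were at 0.42, 0.52 and 0.51. In the class as described here they were at -0.19, -0.09 and -0.24 and did not pass. Of its 9 members tested, 1 was higher and 2 lower, against 6.8% and 8.66% of all genes tested in dendritic cells. In T or NK lymphocytes 0 of 8 members were called higher or lower by edgeR, against 2.9% and 3.32% of all genes tested. S100a10, at 916 ± 131 and 1151 ± 110 CPM, had an unadjusted p of 0.041 and was the only member under 0.05, and its adjusted p was 0.252; DESeq2 called 0 as well. In the other classes with 0 members lower by edgeR, the members lower at an unadjusted p under 0.05 were S100a8 and S100a9 in microglia, S100b in astrocytes and fibroblasts and S100a13 in ependymal cells. DESeq2 called 1 lower in microglia and 1 in fibroblasts and 0 in endothelial cells, smooth muscle cells, oligodendrocytes, astrocytes and ependymal cells. In neutrophils S100a1 was higher at an unadjusted p under 0.05, and DESeq2 called 0 higher.

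The changes of some members differed between classes when the difference itself was tested, in a model over classes with a term for each library. S100a6 rose more in endothelial cells than in astrocytes, by 1.69 ± 0.20 on the log2 scale (edgeR adjusted p = 0.000191, n = 3 and 3). S100a10 rose more in astrocytes than in endothelial cells, by 1.28 ± 0.14 (edgeR adjusted p = 2.30e-12, n = 3 and 3), and less in microglia than in astrocytes, by -1.93 ± 0.17 (edgeR adjusted p = 4.57e-15, n = 3 and 3). For S100a11 the difference between astrocytes and endothelial cells was -0.10 ± 0.19 and did not pass. Between astrocytes and endothelial cells 5 of 10 members differed, where 11.2% of all genes tested did. Between microglia and astrocytes 4 of 10 differed (26.2% of all genes), and between microglia and endothelial cells 3 of 10 (40%).

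Over all kept cells, where a change in the mix of cell types and a change within a type cannot be told apart, 5 of 10 members were higher and 1 lower, against 28.6% and 28.9% of all genes tested. S100a6 went from 152, 151 and 140 CPM to 403, 411 and 422, without overlap. S100a4, S100a10, S100a11 and S100b rose too (1.36, 1.38, 1.13 and 0.31), and S100a13 was lower by 0.15. S100a8 was at 2456, 1438 and 1127 CPM in sham and 958, 890 and 1061 after MCAO, and did not pass (-0.79 ± 0.34, edgeR adjusted p = 0.119, n = 3 and 3); sham library 1 stood well above the others. The sources of the S100a6 and S100a10 pools shifted: monocyte-derived cells held 25.2% of the S100a6 UMIs in sham and 44.3% after MCAO, and 19.2% and 39.0% of the S100a10 UMIs.

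The partner and receptor genes of the family were followed as a list of 18. Of those tested, 8 were higher and 5 lower of 17 in microglia, 8 and 3 of 17 in endothelial cells, and 7 and 1 of 15 in astrocytes. Over all genes tested, 30.1% were higher and 31.9% lower in microglia, 24.6% and 22.6% in endothelial cells, and 11.5% and 9.18% in astrocytes. The median log2 changes of the list were 0.16, 0.13 and 0.43, beside -0.04, -0.02 and -0.01 over all genes tested. Anxa2, which encodes the annexin that binds S100A10, rose in astrocytes from 37.9 ± 6.24 to 127 ± 8.55 CPM (1.76, edgeR adjusted p = 1.66e-14, n = 3 and 3), in endothelial cells from 318 ± 11.8 to 793 ± 18.9 (1.32, edgeR adjusted p = 3.03e-17, n = 3 and 3) and in ependymal cells from 672 ± 87.8 to 1842 ± 157 (1.45, edgeR adjusted p = 1.01e-07, n = 3 and 3). In border macrophages, where S100a10 rose, Anxa2 was higher by 1.29, and in microglia by 1.60. Among calprotectin receptors, Cd14, the co-receptor of Toll-like receptor 4, was higher in microglia (491 ± 9.31 to 3586 ± 108 CPM, 2.87), in neutrophils (4.32) and in monocyte-derived cells (4.48). Tlr4 itself was lower in microglia (-0.56) and higher in endothelial cells from a level of 1.71 ± 0.382 CPM (1.83). Bsg, which encodes the S100A9 receptor basigin, was lower in endothelial cells, from 19330 ± 152 to 11400 ± 14.3 CPM (-0.76, edgeR adjusted p = 2.97e-14, n = 3 and 3). Cacybp, a binding partner of S100A6, was higher in microglia, endothelial cells and astrocytes (0.91, 0.31 and 0.43). Other list members past the threshold were, in microglia, Cd36, Alcam, Anxa5, Ahnak and Hspa1a (5.14, 2.45, 2.18, 0.41 and 0.16) and, lower, Hltf, Ly96 and Anxa6 (-0.91, -0.69 and -0.28). In endothelial cells they were Cd14, Mcam, Cd36, Hspa1a and Myh9 (3.37, 2.18, 2.15, 0.68 and 0.40) and, lower, Alcam and Anxa11 (-0.55 and -0.23). In astrocytes they were Cd14, Hspa1a, Ly96, Ahnak and Anxa5 (3.69, 1.201, 0.95, 0.71 and 0.40), and Bsg was lower (-0.47). Cd14 passed in all 8 of the classes outside the immune system (endothelial cells, pericytes, smooth muscle cells, fibroblasts, astrocytes, oligodendrocytes, ependymal cells and choroid plexus epithelium). It was at 211 ± 18.7 CPM after MCAO in endothelial cells, 147 ± 4.17 in astrocytes and 111 ± 21.5 in choroid plexus epithelium. What part of this came from RNA of other cells was not tested.

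The distribution of each gene was compared with those of 7570 genes over 28 points, 1 for each of the 14 classes in each group, by Pearson's r of log2(mean CPM + 1). These points share libraries and free RNA, so r is a description. S100a8 and S100a9 were each other's closest gene (r = 0.991), with Wfdc21 next. S100a11 was closest to Plp2 (0.944), S100a16 to Prnp (0.936), S100b to Slc22a23 (0.935), S100a1 to Pfn2 (0.887), S100a6 to Anxa1 (0.858), S100a4 to H2afy (0.854), S100a10 to Ass1 (0.836) and S100a13 to Gpd2 (0.818). S100a10 and S100a4 were also near each other (0.836), whereas S100a1 and S100a13, the divergent neighbours, were not (0.14).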

How the data were processed

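UMI counts per gene and cell were measured in 3 sham and 3 MCAO libraries. The deposited values are raw UMI counts; per the submitters' processing notes they were made with Cell Ranger and STAR on mm10, in versions not given in the sources used here. How reads over overlapping genes were assigned is not given there either. From the counts, barcodes with under 300 genes or over 10% mitochondrial UMIs were removed, and 4454 doublets were called against simulated pairs at 0.8% per 1000 barcodes. Cells were scaled to 10000 UMIs, reduced to 30 components of 2000 variable genes without S100 genes, and clustered (scanpy 1.11.5, igraph 0.11.9, 20 neighbours, Leiden resolution 1.0). A cluster was named where at least 3 markers of a class were detected in 25% of its cells; further rules on clusters with markers of a second class were set after the clusters were seen. Counts were summed per library and class and tested with edgeR 4.0.16 (R 4.3.3; quasi-likelihood, filterByExpr, TMM) without a replicate block. The scaling moved the log2 change of all genes, against scaling by the total, by 0.14 in microglia, 0.13 over all kept cells, 0.11 in pericytes, 0.10 in astrocytes and monocyte-derived cells, -0.10 in neutrophils and -0.21 in dendritic cells. Alternatives were DESeq2 1.42.0, other scalings and filters, other clusterings, the replicate block and leaving out each library. The tests were checked on simulated counts. The members and gene lists were chosen with earlier results of these data known. Named are all 10 members in each class, the listed partners past the threshold in microglia, endothelial cells or astrocytes, and, for each member, the gene with the most similar distribution.

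Shares of cells with a UMI were computed after each cell with at least 1000 UMIs was thinned to that depth. Shallower cells were left out of them. The thinning covers counting of captured molecules only. Per class and library the summed depth ran from 111800 UMIs (pericytes) to 9239000 UMIs (endothelial cells), and rare classes have the less precise values. Sequences come from RefSeq tables and gene positions from GENCODE M21.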

Additional observations from a re-analysis of the deposited data

Results flagged for a closer look

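The tested differences in change between 2 classes are given here in log2 units, as the change in the first class minus the change in the second. Microglia minus endothelial cells came to -1.23 for S100a6, -0.56 for S100a10 and -0.53 for S100a11, where 40% of all genes tested differed. Leaving out sham library 3 gave -1.24 for S100a6 and ended its call. Microglia minus astrocytes came to 0.38 for S100a6, -1.93 for S100a10, -0.51 for S100a11 and 0.61 for S100b, where 26.2% of all genes tested differed. Of these, only S100a10 kept its call in every fit that left out 1 library. The call of S100a6 was lost without any 1 of the sham libraries 1 (0.26), 2 (0.46) and 3 (0.42) or MCAO library 3 (0.36). That of S100a11 was lost without sham library 2 (-0.60) or 3 (-0.28) or MCAO library 2 (-0.41) or 3 (-0.40), and that of S100b without sham library 1 (0.39) or 3 (0.54). Astrocytes minus endothelial cells came to -1.62 for S100a4, -1.69 for S100a6, 1.28 for S100a10, 0.56 for S100a16 and -0.97 for S100b. The S100a4 call was lost without sham library 2 (-1.41) or 3 (-1.18). Several levels that enter these differences lay within the ranges of other cells' markers given above. They were microglial S100a6, S100a10 and S100a11, endothelial S100a4, S100a6, S100a10, S100a11 and S100b, and astrocyte S100a11. In endothelial cells the monocyte marker range reached 93.0%, so a place within it says little. Astrocyte S100a4, at 5.34% of the monocyte-derived level after MCAO, also lay within the monocyte marker range. Microglial S100b was 2.26% of the astrocyte level after MCAO, against 1.17 to 4.77% for the astrocyte markers. What part came from RNA of other cells was not tested.

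S100a5, known from olfactory neurons, had 57 UMIs in MCAO library 1, against 1 in the 3 sham libraries together. Of the 57, 54 came from 1 cell, in an unnamed cluster led by Hba-a1 and Hba-a2 that also had Sox11, Igfbpl1 and Dlx2 among its leading genes.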

How the results depend on the processing

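Of the 46 changes called, 25 kept their call and direction under all alternatives run and 21 lost it under at least 1: 12 when a library was left out, 10 at the mitochondrial limit of 5%, 9 with DESeq2 and 3 with the replicate block. The 25 include S100a6, S100a10 and S100a11 in endothelial cells, astrocytes and ependymal cells, S100a10 in border macrophages, S100a4 in monocyte-derived cells and S100a8 and S100a9 in neutrophils. Not every alternative gave a value for each of these. Leaving out cells with a neutrophil gene UMI left too few ependymal, monocyte-derived and dendritic cells to test. It kept all neutrophils, and the neutrophil profile was not subtracted from them. Where a call was lost the cause was not tested. At the limit of 5% and with S100 genes kept, cells were clustered and named anew, so a class need not hold the same cells. Dendritic cells went from 106 sham and 402 MCAO cells to 307 and 620 at 5%, and to 304 and 621 with S100 genes kept. Signs turned in dendritic cells for S100a4, S100a6 and S100a10, to 0.47, 0.56 and 0.54 at 5% and 0.42, 0.52 and 0.51 with S100 genes kept in the clustering, and at 5% for S100a6 in smooth muscle cells (-0.27) and S100b in oligodendrocytes (-0.90).

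Counts of members moved as follows. At 5%, dendritic cells had 4 higher and 1 lower, pericytes 0 lower, smooth muscle cells 1 higher, oligodendrocytes 1 higher and 1 lower, and choroid plexus epithelium 0 lower. With S100 genes kept, dendritic cells had 4 higher and 1 lower. Scaled by library total only, 3 were lower in microglia, 0 higher in monocyte-derived cells, 1 lower in dendritic cells, 2 in endothelial cells, 1 in astrocytes, 1 in choroid plexus and 3 over all kept cells, and 5 differed between microglia and endothelial cells, as with no filter. DESeq2 called lower 1 in microglia, 0 in border macrophages, 0 in dendritic cells, 1 in fibroblasts and 1 in choroid plexus. With no filter, 1 was lower in microglia, border macrophages, monocyte-derived and dendritic cells each. With the replicate block, lower counts were 1 in microglia, monocyte-derived cells, fibroblasts, astrocytes and choroid plexus, with 0 higher in monocyte-derived cells. With no doublets removed, monocyte-derived cells had 0 higher, dendritic cells 1 lower and choroid plexus 4 higher and 1 lower. Without cells holding a neutrophil gene UMI, 1 was lower in microglia, 1 higher in border macrophages, 0 in fibroblasts and 2 in oligodendrocytes. With the neutrophil profile subtracted, 1 was lower in border macrophages, monocyte-derived cells and choroid plexus each, and S100a8 in monocyte-derived cells was at -14.06. The size of that value comes from the subtraction, which took out more S100a8 than these MCAO cells held. In them the list stood at 1.24% to 1.55% of its neutrophil level and S100a8 at 0.451% to 0.984%.

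Leaving out 1 library gave, for members higher, 0 to 1 in T or NK lymphocytes, 0 to 2 in dendritic cells, 0 to 1 in fibroblasts and 2 to 4 in oligodendrocytes, and, for members lower, 0 to 1 in astrocytes, endothelial cells, fibroblasts and smooth muscle cells, 0 to 2 in border macrophages, dendritic cells and microglia, and 1 to 3 in choroid plexus and monocyte-derived cells. Differences between classes numbered 1 to 7 (microglia and astrocytes), 4 to 7 (astrocytes and endothelial cells) and 2 to 4 (microglia and endothelial cells). Thinned to 500 UMIs, 1.81% of sham and 6.39% of MCAO astrocytes had an S100a10 UMI, 2.94% and 20.1% of MCAO endothelial cells an S100a6 and an S100a11 UMI, and 5.14% of sham and 3.86% of MCAO endothelial cells an S100a8 UMI. Retnlg alone stood at 0.109%, 0.0989% and 0.124% of its neutrophil level in MCAO endothelial cells, microglia and astrocytes, against 0.138%, 0.174% and 0.183% for the list. Libraries with the same number did not deviate together (r from -0.12 to 0.06 in microglia, endothelial cells and astrocytes). At Leiden resolution 0.5 no value was had for ependymal and dendritic cells, nor for oligodendrocytes there or with S100 genes kept, for too few cells.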

Other observations

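The clusters left unnamed also held S100 genes at levels of their own, in CPM without TMM scaling. The cluster led by Gkn3, Stmn2 and Bmx held 2051 sham and 73 MCAO cells. S100a4, near 0 in the named endothelial clusters, was at 8.88 ± 2.86 CPM in its sham and 41.7 ± 21.8 in its MCAO cells, S100a6 at 66.7 ± 2.87 and 294 ± 33.2, S100a10 at 111 ± 10.47 and 196 ± 29.4, and S100a11 at 381 ± 25.2 and 621 ± 118 (SD, n = 3). For each of the 4 genes the lowest MCAO library was above the highest sham library. In a cluster led by Plvap, Rbp7 and Gpihbp1, with 146 sham and 140 MCAO cells, S100a10 was at 223 ± 57.2 and 225 ± 43.8 CPM and S100a11 at 186 ± 49.2 and 183 ± 30.8, with overlapping groups. None of these values was tested.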
